A study of Mus musculus with 11 samples.

Results

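The 7 genes described here, Ngfr, Sox10, Sox8, Foxd3, Erbb3, Fabp7 and Apod, are known from the neural crest and from Schwann cells, the glia of peripheral nerves. They were taken by gene symbol from the 26398 genes listed for both cell types of the study, and all 7 have a row with a value, which may be 0, for each of the 11 libraries. The choice followed measured values, since Ngfr was lower in the Atxn7l3-/- libraries of both cell types and Apod was among the largest decreases that both cell types shared. For that reason the comparison of Atxn7l3-/- with WT libraries is given for these 7 genes as a description, with no test.

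The neural crest is a migratory cell population that leaves the dorsal neural tube and forms peripheral neurons and glia, pigment cells, and much of the facial skeleton. SOX10, with its relatives SOX8 and SOX9 (the SoxE factors), and FOXD3 act early in this lineage, and SOX10 is required for peripheral glia. Schwann cell precursors carry the neuregulin receptor ERBB3 and the neurotrophin receptor p75, the product of Ngfr, and they express the lipid carrier FABP7 (also called BLBP). Apolipoprotein D, the product of Apod, is a secreted lipid carrier made by Schwann cells and fibroblasts.

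ATXN7L3 is an adaptor that the deubiquitylation module of the SAGA coactivator needs to remove ubiquitin from histone H2B, and the Atxn7l3-/- cells are homozygous for a germline allele that the study calls null. The targeting construct held a LacZ and Neo cassette between FRT sites and loxP sites around most exons, and the methods name an FLP deleter strain for this allele. Poly(A) RNA was sequenced from mouse embryonic stem cells (mESCs; 2 WT and 3 Atxn7l3-/- libraries) and from mouse embryonic fibroblasts (MEFs; 3 WT and 3 Atxn7l3-/- libraries) of a DBA/2 x C57BL/6 background, with no treatment. The mESC lines came from single blastocysts of heterozygous intercrosses, were kept on feeder cells for their first passages only, and grew with LIF and inhibitors of MEK and GSK3. The MEFs came from E10.5 embryos, each cultured in its own well after the head and the gut had been removed.

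Libraries held 34515342 to 49602605 counts on genes. Atxn7l3 itself averaged 199 CPM (reads scaled to a common library size) in WT and 1.92 CPM in Atxn7l3-/- mESCs, whereas the MEF libraries labelled Atxn7l3-/- kept 60.3% of the WT mean (61.7 ± 9.99 against 102 ± 15.2 CPM; SD, n = 3 each). For MEFs, "Atxn7l3-/-" below therefore means the libraries labelled so, and every direction given for MEFs rests on those labels. The paper reports, from measures other than these libraries, undetectable ATXN7L3 protein and raised ubiquitylated H2B in its Atxn7l3-/- mESCs and MEFs. Y-linked transcripts were near 0 in 2 Atxn7l3-/- mESC libraries (replicates 1 and 2) and in WT MEF replicate 3, which had an Xist level of 336 CPM. The 6 mesothelial markers (the lining cells of body cavities, among them Upk3b, Upk1b and Muc16) summed to 13.7 to 36.7 CPM in WT MEFs and to 4698 to 6880 CPM in Atxn7l3-/- MEFs. Of these, 5 rose (edgeR quasi-likelihood test, adjusted p ≤ 0.05), with log2 fold changes of 7.75 for Upk3b, 8.39 for Upk1b and 8.55 for Muc16. The 14 fibroblast markers summed to 22549 to 63629 CPM in WT and to 36636 to 54328 CPM in Atxn7l3-/- MEFs, and none of the 14 passed that test (Col1a1 −0.94, adjusted p = 0.378; Pdgfra 1.77, adjusted p = 0.256). Single markers of that list went both ways in the edgeR fit, such as Postn (1767 to 60.7 CPM, −4.83, adjusted p = 0.135) and Dcn (148 to 1659 CPM, 3.47, adjusted p = 0.0936), which are named after their values were seen and did not overlap between groups. In mESCs the same list summed to 1434 to 2501 CPM in WT and to 3124 to 5268 CPM in Atxn7l3-/- libraries, and 3 of its 14 genes were called higher, among them Col1a1 (2.54; edgeR, adjusted p = 0.0469). In bulk RNA, fewer cells of a type and less RNA per cell cannot be told apart, and the part of these marker differences in the values below was not tested.

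For 3 of the 7 genes, Ngfr, Foxd3 and Apod, every Atxn7l3-/- library lay below every WT library in both cell types. The means of Sox8 and Erbb3 were also lower in both, but with overlapping mESC libraries. The share of all genes without overlap in both cell types was not counted, so nothing is read from the number 3. Because of this separation, the bases upstream of the annotated transcript starts are shown for Ngfr, Foxd3 and Apod. Each is given 5′ to 3′ on the coding strand from RefSeq on GRCm38.p6, and capitals mark the motifs GGGCGG (a GC box) and ACAAAG (a core that SOX proteins can bind), searched on both strands together with TATAAA and AACAAT. The Ngfr window is chr11:95587736-95587948 (minus strand), that of Foxd3 is chr4:99656049-99656298 (plus strand) and that of Apod is chr16:31314809-31315058 (minus strand).

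Ngfr: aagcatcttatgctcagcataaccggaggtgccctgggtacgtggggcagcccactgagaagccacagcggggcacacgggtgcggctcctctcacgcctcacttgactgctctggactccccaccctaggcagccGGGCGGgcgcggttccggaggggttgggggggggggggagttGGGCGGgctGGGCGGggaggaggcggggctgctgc
Foxd3: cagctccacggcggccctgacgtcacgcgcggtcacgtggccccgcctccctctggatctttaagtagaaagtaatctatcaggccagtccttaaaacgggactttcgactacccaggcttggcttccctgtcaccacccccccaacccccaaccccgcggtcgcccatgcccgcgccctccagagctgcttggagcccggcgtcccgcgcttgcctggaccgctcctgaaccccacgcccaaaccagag
Apod: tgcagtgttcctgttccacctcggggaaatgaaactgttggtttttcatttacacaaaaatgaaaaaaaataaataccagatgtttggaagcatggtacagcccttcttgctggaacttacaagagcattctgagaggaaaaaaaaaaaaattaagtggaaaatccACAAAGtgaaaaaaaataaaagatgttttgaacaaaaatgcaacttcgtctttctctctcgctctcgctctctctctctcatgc

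The 213 bases of Ngfr were 70.9% G or C with 14 CpG dinucleotides and 3 GGGCGG matches, a motif found in 32.7% of the 32851 annotated windows, each cut to its first 250 bases. The 250 bases of Foxd3 were 65.6% G or C with 21 CpG dinucleotides and held none of the 4 motifs. The 250 bases of Apod were 36.4% G or C with 4 CpG dinucleotides, and held 1 ACAAAG match, which 16.5% of all windows share. The median window had 52.4% G or C and 6 CpG dinucleotides, so Ngfr and Foxd3 lay above it and Apod below it on both counts. TATAAA and AACAAT, which occur in 12.4% and 9.42% of all windows, were in none of the 3.

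Ngfr encodes the p75 neurotrophin receptor, which binds neurotrophins and marks migrating crest cells. Its gene lies on chromosome 11 (mm10, 95568818 to 95587735, minus strand). In mESCs the 2 WT libraries had 37.6 and 32.0 CPM and the 3 Atxn7l3-/- libraries 8.64, 7.89 and 5.93 CPM. The groups did not overlap and each held close to its own mean, with a log2 fold change of −2.16 ± 0.27 (SE; WT mean 4.65 times the Atxn7l3-/- mean). In MEFs the 3 WT libraries had 38.0, 9.92 and 96.3 CPM, and the 3 Atxn7l3-/- libraries had 0.238, 0.0511 and 0.747 CPM. The WT libraries were thus far apart from each other, yet the lowest of them stood well above every Atxn7l3-/- library (log2 fold change −6.94 ± 1.25). The WT mean was 139 times the Atxn7l3-/- mean, and 69.4 times without WT replicate 3, the highest library.

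Erbb3 encodes a receptor with an impaired kinase that binds neuregulins and signals with ERBB2, a pair that Schwann cell precursors need for survival. It lies on chromosome 10 (128567523 to 128589652, minus strand). Its levels in mESCs were 232 and 122 CPM in WT and 116, 199 and 129 CPM in Atxn7l3-/- libraries, which overlapped (−0.23 ± 0.33 on the log2 scale). In MEFs it stood at 7.63, 2.93 and 11.4 CPM in WT and at 2.68, 7.56 and 1.14 CPM in Atxn7l3-/- libraries (−0.96 ± 0.79). Erbb3 was the only one of the 7 genes whose MEF groups overlapped, since Atxn7l3-/- replicate 2 was higher than WT replicate 2 and the difference was about the size of its error.

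Sox10, on chromosome 15 (79154913 to 79164490, minus strand), encodes the SoxE factor that sets the glial fate in the crest. It was near the limit of detection in all 5 mESC libraries, at 0.0571 and 0.267 CPM in WT and 0.154, 0.107 and 0.606 CPM in Atxn7l3-/- libraries (16 counts in all in WT and 38 in Atxn7l3-/- libraries). In MEFs it had 7.35, 4.96 and 26.9 CPM in WT libraries, and 0.0530, 0 and 0.0896 CPM in Atxn7l3-/- libraries, which is 2, 0 and 3 counts. Sox10 transcripts were thus present in every WT MEF culture and close to absent from every Atxn7l3-/- one. With 1624 counts in WT against 5 in Atxn7l3-/- libraries, the ratio of the pooled levels was 293, with an exact 95% interval of 125 to 904 that covers counting error only. Without WT replicate 3 the WT mean was 129 times the Atxn7l3-/- mean, against 275 times with it.

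Sox8, on chromosome 17 (25565892 to 25570686, minus strand), encodes a SoxE factor that overlaps SOX10 in glia. In mESCs it was low, at 2.30 and 0.986 CPM in WT and 1.98, 0.984 and 1.46 CPM in Atxn7l3-/- libraries, with full overlap (−0.11 ± 0.58 on the log2 scale). The WT MEF libraries had 10.4, 2.34 and 4.58 CPM and the Atxn7l3-/- MEF libraries 0.848, 0.128 and 0.418 CPM. The MEF groups did not overlap, and the log2 fold change was −3.53 ± 0.89, a smaller distance than that of Sox10.

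Foxd3, on chromosome 4 (99656299 to 99658622, plus strand), encodes a forkhead repressor used both in pluripotent cells and in the early crest. It had 17.7 and 13.9 CPM in WT mESCs and 3.16, 4.66 and 4.90 CPM in Atxn7l3-/- mESCs, groups that did not overlap (−1.84 ± 0.34 on the log2 scale). In MEFs it was found at 0.916, 0.780 and 8.74 CPM in WT libraries and with 0 counts in each of the 3 Atxn7l3-/- libraries. Set against a floor of 3 counts per library, it was at least 42.5-fold lower in Atxn7l3-/- MEFs, and at least 10.4-fold lower without WT replicate 3, which held 359 of the 429 WT counts.

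Fabp7, on chromosome 10 (57784881 to 57788450, plus strand), encodes a fatty acid binding protein of glial precursors. It was undetected in the 2 WT mESC libraries and had 3 counts in all in the 3 Atxn7l3-/- ones, so no change was fitted there. In MEFs it reached 94.5, 78.9 and 59.7 CPM in WT libraries, the highest mean of the 7 genes and the least relative spread, and 13.8, 1.81 and 4.004 CPM in Atxn7l3-/- libraries. The groups did not overlap (log2 fold change −3.60 ± 0.74), although Atxn7l3-/- replicate 1 kept clearly more Fabp7 than the others.

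Apod, on chromosome 16 (31296192 to 31314808, minus strand), encodes apolipoprotein D and had the largest fitted change of the 7 genes in mESCs. It had 3.98 and 5.16 CPM in WT mESCs and 0.385, 0.428 and 0.225 CPM in Atxn7l3-/- mESCs (−3.52 ± 0.50 on the log2 scale). In MEFs it had 16.3, 9.79 and 7.94 CPM in WT libraries and 0.185, 0 and 0.120 CPM in Atxn7l3-/- libraries (−6.24 ± 1.03), the latter from 11 counts in all. Apod therefore did not overlap between genotypes in either cell type, and unlike that of Ngfr its WT MEF level was not carried by WT replicate 3 (WT mean 111 times the Atxn7l3-/- mean, 128 times without that replicate).

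**Figure D1:**
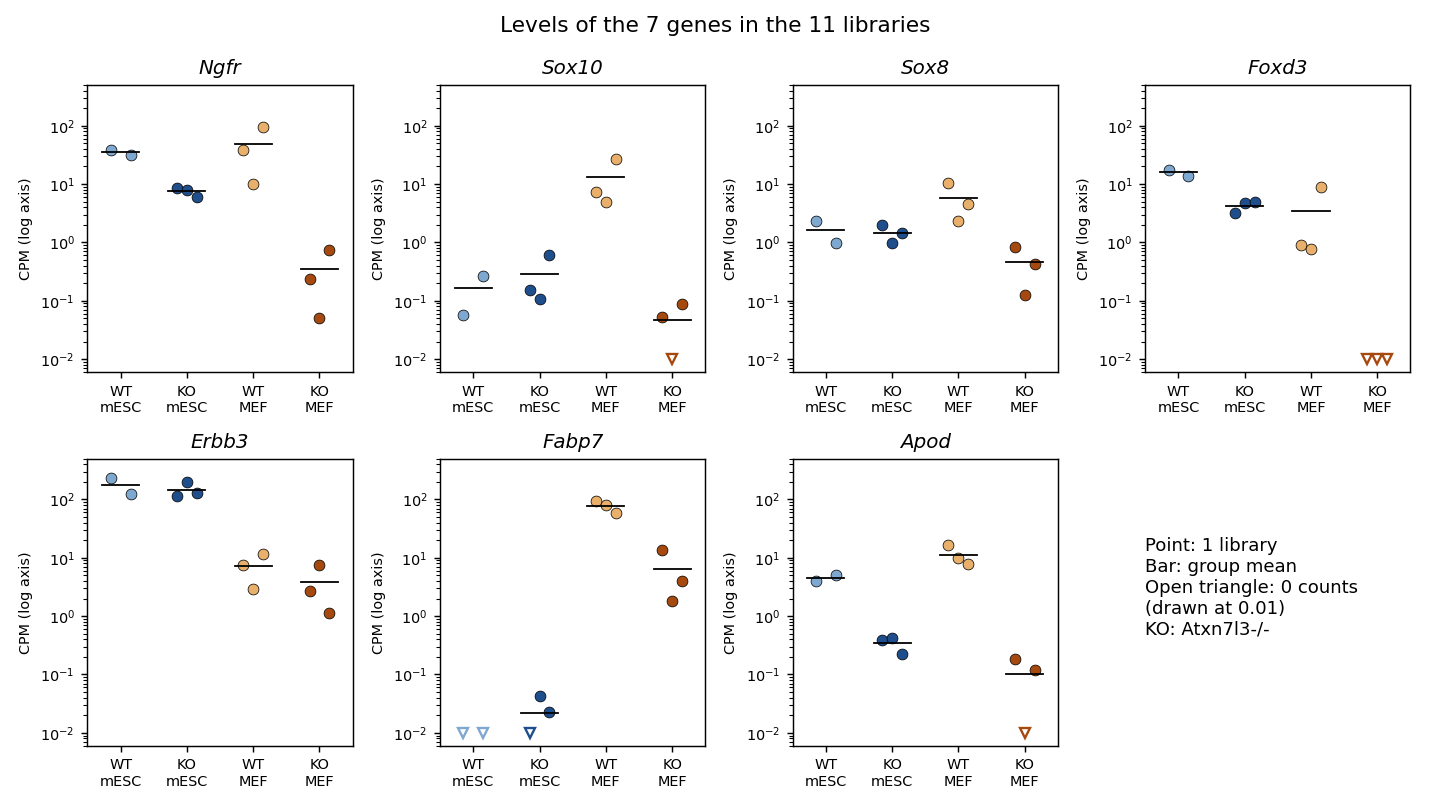
CPM of each gene in each library on a log axis, with 1 point per library, bars at the group means and open triangles for 0 counts. For Ngfr, Foxd3 and Apod every Atxn7l3-/- (KO) library lies below every WT one in both cell types. Sox10, Sox8 and Fabp7 separate in MEFs, and the Erbb3 groups overlap in both.

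Among the 6 of the 7 genes that passed the filter on low counts in mESCs, the Atxn7l3-/- libraries all lay below the WT libraries for 3, where 26.7% of all genes tested did so. The same 3 met the thresholds of a call (adjusted p ≤ 0.05, a 2-fold or larger change, and an expression threshold of more than 10 normalised reads per kb), against 2.18% of expressed genes called lower. In MEFs all 7 passed the filter, and 6 had non-overlapping lower libraries where 19.7% of all genes tested did. There 5 met the thresholds (Ngfr, Sox10, Sox8, Fabp7 and Apod), against 3.55% of expressed genes called lower, while Foxd3 stayed under the expression threshold with 6.30 normalised reads per kb. The genes were picked from these same comparisons, so nothing is read from these counts. The median log2 fold change was −1.03 in mESCs, beside 0.04 over all genes tested, and −6.09 in MEFs, beside −0.05.

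**Figure D2:**
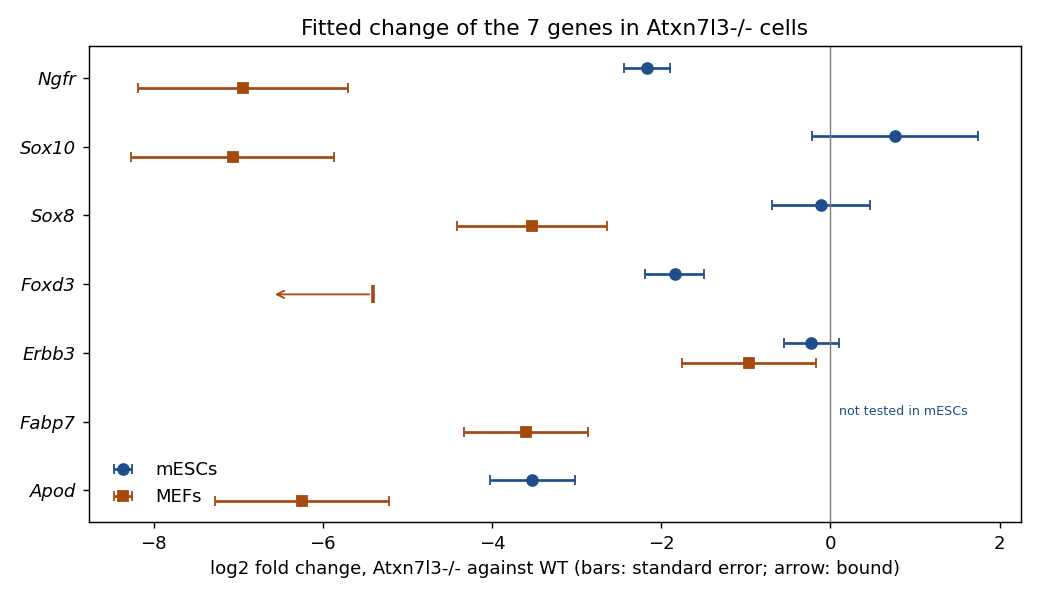
Fitted log2 fold change of Atxn7l3-/- against WT for each gene, with bars for the standard error, in mESCs (circles) and MEFs (squares). The arrow for Foxd3 in MEFs starts at its bound of 42.5-fold and has no error bar, and the mESC values lie closer to 0 than the MEF values for each gene fitted in both.

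Other measures moved with these differences. Among the Atxn7l3-/- mESC libraries, replicate 3 had Ddx3y, a Y-linked gene, at 192 CPM (80.3 and 175 CPM in WT, at most 2.95 CPM in the other two), and this library was 5.87 times below the WT mean for Ngfr, 3.23 times for Foxd3 and 20.3 times for Apod. The part of sex chromosome content, and of the fibroblast markers that were higher in Atxn7l3-/- mESCs, was not tested. In MEFs the fitted changes moved with GC content. Genes within 1 percentage point of the GC content of Ngfr, Sox10, Sox8 and Foxd3 (58.6% to 65.1%) had median log2 fold changes of −0.76, −1.14, −0.91 and −1.69, whereas those near Apod (50.01% GC) had 0.02 and those near Fabp7 (42.0%) had 0.42. With a correction of this trend, chosen after the data were seen, the log2 fold change in MEFs was −6.40 for Ngfr, −6.22 for Sox10, −2.80 for Sox8, −4.01 for Fabp7 and −6.27 for Apod.

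Summed markers of neurons and of muscle were also lower in every Atxn7l3-/- MEF library than in every WT one. The 10 neuron markers, 9 of which were listed, summed to 58.9 to 202 CPM in WT and 4.72 to 33.8 CPM in Atxn7l3-/- MEFs, and Stmn2, a neuronal microtubule regulator, had a log2 fold change of −6.66 (edgeR, adjusted p = 0.0109) and was the only call of that list. Tubb3, a neuronal tubulin, stood at −2.31 (edgeR, adjusted p = 0.258) and Prph, a peripheral neuron filament, at 2.60 (edgeR, adjusted p = 0.123), with overlapping groups. In mESCs Tubb3 fell (−1.90; edgeR, adjusted p = 0.0307). Snap25, of the same list, was at 0 in all 3 Atxn7l3-/- MEF libraries and summed to 25 counts in WT. Rbfox3 went the other way, with 1 count in WT and 4 in Atxn7l3-/- MEFs, and both genes were low throughout MEFs. The 6 muscle markers summed to 6.08 to 60.6 CPM in WT and 0.128 to 0.657 CPM in Atxn7l3-/- MEFs, and none of them passed the test and thresholds (2 had an edgeR adjusted p ≤ 0.05 but lay under the expression threshold). The 7 genes together summed to 110 to 216 CPM and 6.51 to 17.8 CPM in the same libraries. The part of these other lineages in the differences was not tested.

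**Figure D3:**
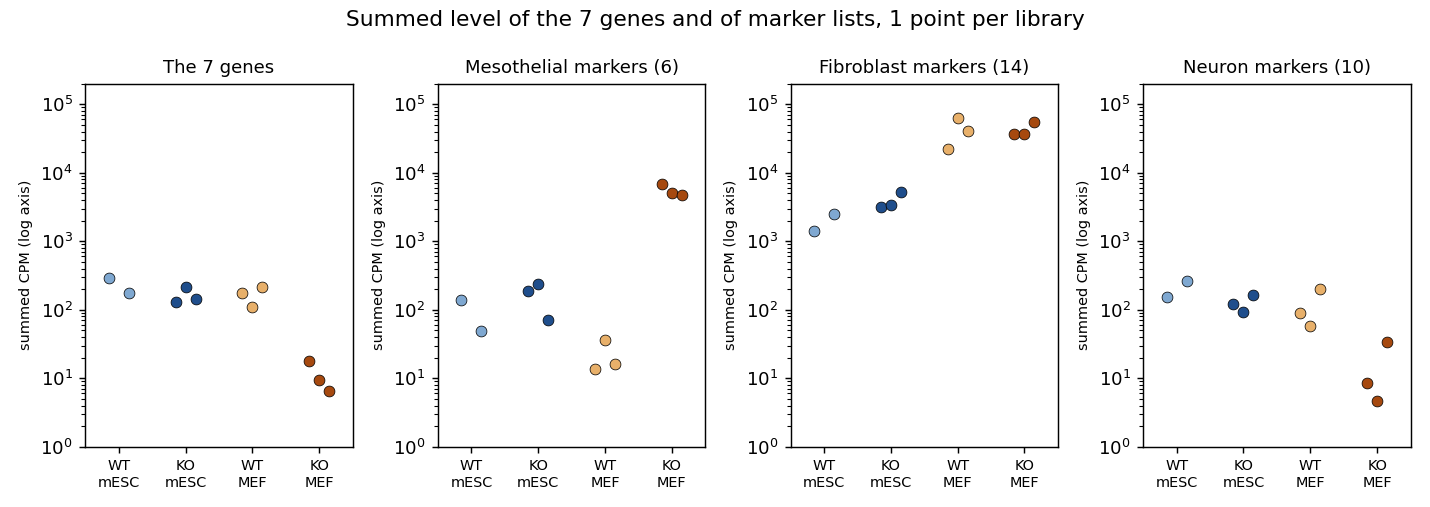
Summed CPM of the 7 genes and of 3 marker lists on a log axis, with 1 point per library. In MEFs the crest genes and the neuron markers are lower in Atxn7l3-/- (KO) libraries, the mesothelial markers are higher (at least 4698 CPM), and the fibroblast markers overlap.

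The 7 genes were chosen from Atxn7l3-/- against WT and not from a comparison of cell types. That choice did use the same WT libraries, as the reference for the Atxn7l3-/- ones. WT MEFs were tested against WT mESCs in 1 edgeR fit of all 11 libraries over 19312 genes. Of the 7 genes, 3 passed at an adjusted p ≤ 0.05 and a change of at least 2-fold, where 47.7% of all genes tested did. Sox10 was higher in MEFs by 5.97 ± 1.35 on the log2 scale (edgeR, adjusted p = 0.00275). Fabp7 was also higher in MEFs, at least 1309-fold against a floor of 3 counts per library (edgeR, adjusted p = 6.9e-05). It passed the filter on low counts only through the MEF libraries, where it was high, so nothing is drawn from its p-value. Erbb3 was lower in MEFs, with a log2 difference of −4.59 ± 0.73 (edgeR, adjusted p = 0.000527), and each of these 3 genes was higher or lower in all 3 WT MEF libraries than in both WT mESC libraries. With at least 10 counts required in every library, only Erbb3 was fitted, and it was called.

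For the other 4 genes the difference between cell types did not pass. The log2 difference of Ngfr between WT MEFs and WT mESCs was 0.47 ± 0.84 (edgeR, adjusted p = 0.659), with a sign that turned without WT MEF replicate 3 (−0.53, adjusted p = 0.617). For Apod it was 1.302 ± 0.76 (edgeR, adjusted p = 0.166). Sox8 (1.78 ± 0.85, adjusted p = 0.0937) and Foxd3 (−2.17 ± 0.94, adjusted p = 0.0787) missed the threshold in the same fit. With the replicate block both passed (adjusted p = 0.0351 and 0.0136), and without WT MEF replicate 3 Foxd3 passed at −4.14 (edgeR, adjusted p = 0.000946). With DESeq2 Sox8 and Apod passed (adjusted p = 0.0427 and 0.0226), and leaving out 1 library also brought Sox8 (without WT MEF replicate 2, 0.0485) and Apod (without Atxn7l3-/- MEF replicate 2, 0.0482) under the threshold. The WT libraries of Apod, Sox8 and Foxd3 did not overlap between cell types, whereas those of Ngfr did. The share of all genes tested without such overlap was not counted, so nothing is read from overlap in this comparison. A missed threshold does not show equal levels.

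Levels per kb of transcript allowed the genes to be ordered within a cell type. In WT MEFs, Fabp7 came first with 92.3 ± 20.7 CPM per kb (SD, n = 3), above Apod (16.2 ± 6.24), Ngfr (13.95 ± 12.8), Sox8 (6.21 ± 4.46), Sox10 (4.82 ± 4.43), Foxd3 (1.497 ± 1.96) and Erbb3 (1.22 ± 0.707). Only the step from Fabp7 to Apod exceeded the spread between libraries, and all other neighbours overlapped. In WT mESCs, Erbb3 came first with 29.5 ± 12.9 CPM per kb (SD, n = 2), followed by Ngfr (10.1 ± 1.15), Foxd3 (6.80 ± 1.18), Apod (6.52 ± 1.19), Sox8 (1.77 ± 1.00) and Sox10 (0.0598 ± 0.0547), with Fabp7 at 0. Foxd3 and Apod were the only neighbours there whose spreads overlapped.

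The WT MEF cultures did not carry these genes in fixed proportion. Ngfr, Sox10, Foxd3 and Erbb3 were highest in replicate 3 and lowest in replicate 2, Sox8 was highest in replicate 1, and Fabp7 and Apod were highest in replicate 1 and lowest in replicate 3. Fabp7 and Apod thus shared an order that none of the other genes had, and Sox8 had an order of its own. These orders rest on 3 libraries and were not tested.

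To place the 7 genes among their pathways, 113 other genes in 7 lists were tested for Atxn7l3-/- against WT over all genes. In MEFs, 12 of the 78 expressed genes on these lists fell and 2 rose (edgeR, adjusted p ≤ 0.05 and at least 2-fold), shares to be read beside 3.55% and 4.74% of all expressed genes. With the replicate number as a block the counts were 23 lower and 3 higher, beside 7.33% and 5.38%, and 11 genes were called both ways. The count of 14 calls rested on single libraries, being 3 without WT replicate 3, 7 without WT replicate 1, 5 without Atxn7l3-/- replicate 1 and 2 without Atxn7l3-/- replicate 2. The median log2 fold change over the 89 listed genes tested in MEFs was −1.67, and 72 were below 0. In mESCs, 4 of 64 expressed genes fell and 3 rose, beside 2.18% and 3.13% of all expressed genes, and the median over 80 tested was −0.13. No listed gene was called in mESCs without WT replicate 1, WT replicate 2 or Atxn7l3-/- replicate 1 (edgeR). In these fits 16, 16 and 21 of the 64 had an unadjusted p under 0.05. In the edgeR fit of all 5 libraries 22 did, beside 5309 of all 17800 genes tested. DESeq2 on all 5 libraries called 14, beside 12.9% of all expressed genes.

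Schwann cell and glial genes held 9 of the 14 calls in MEFs, and 7 of the 26 with the replicate block. Of 13 expressed genes on this list of 20, 8 fell and 1 rose, with a median of −2.28 over the 18 tested. The 8 lower calls became 4 with the GC correction, 6 with the replicate block, 4 without WT replicate 1, 5 without WT replicate 2, 2 without WT replicate 3, and 1 without either Atxn7l3-/- replicate 1 or replicate 2. Gfap, the intermediate filament of glia, went from 16.1, 22.2 and 5.60 CPM to 0.291, 0.102 and 0.0896 CPM (−6.13 ± 0.81; edgeR, adjusted p = 0.0118), and remained called without any single library. Gfra3, a receptor subunit for artemin, fell by 5.20 on the log2 scale (edgeR, adjusted p = 0.0183), from 306 counts in WT to 2. Gfap had 18 counts in all in Atxn7l3-/- MEFs. Both genes passed the filter on low counts through the WT libraries, where they were high, so nothing is drawn from their p-values. With at least 10 counts required in every library, 9 expressed genes of this list were fitted, of which 5 fell and 1 rose. L1cam, Gap43, Prx and Cnp also fell, and are named after their values were seen. Prx and Cnp had an adjusted p of 0.0526 with the block, and L1cam, Prx and Cnp were not called with the GC correction. In the 6 edgeR fits that left out 1 library, Gap43 was called in 3, L1cam and Prx in 1 each, and Cnp in 0.

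Mbp moved the other way. It had 7.23, 2.81 and 3.70 CPM in WT and 232, 262 and 151 CPM in Atxn7l3-/- MEFs, a log2 fold change of 5.504 ± 0.48 (edgeR, adjusted p = 0.00594), and stayed called without any single library. Besides myelin basic protein, this locus encodes Golli transcripts that are made outside myelinating glia, and counts per gene do not separate them. The Schwann precursor markers Cdh19 and S100b missed the test in the unblocked fit (Cdh19 12.6 CPM in WT and 0.284 CPM in Atxn7l3-/- MEFs on average; −5.25 ± 1.37, adjusted p = 0.0534; S100b 2.00 and 0.0957 CPM; −3.79 ± 1.29, adjusted p = 0.0760). With the replicate block their adjusted p was 0.0186 and 0.0210, and S100b stayed under the expression threshold. In mESCs Ncam1, a neural cell adhesion molecule, was the only called gene of this list and rose (1.85; edgeR, adjusted p = 0.0377).

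In the crest specifier list, calls in MEFs depended on the fit. Of 19 expressed genes on this list of 20, none was called by edgeR in the unblocked fit of the MEF libraries. An unadjusted p under 0.05 was found for 6 of the 19, beside 5166 of all 15958 genes tested. DESeq2 called 7 lower and 1 higher (beside 18.5% of all expressed genes called either way). The replicate block gave 6 lower and 1 higher, beside 7.33% and 5.38% of all expressed genes. The unblocked edgeR fit of all 11 libraries called 3 lower and 1 higher, and 0 to 4 were called lower with 1 MEF library left out. The shares of all genes in these fits were not counted. The median log2 fold change was −2.07, and 16 of 19 were below 0. Sox9, the SoxE factor shared with cartilage, had 16.6, 39.2 and 14.5 CPM in WT and 6.73, 2.20 and 6.66 CPM in Atxn7l3-/- MEFs, which did not overlap (−2.17 ± 0.59; edgeR, adjusted p = 0.0631, and 0.102 with the block). For Snai2, a repressor of epithelial genes, the log2 fold change was −1.94 (adjusted p = 0.0938). For Pax3 and Tfap2a, border specifiers of the crest, it was −3.14 (adjusted p = 0.183) and −2.97 (adjusted p = 0.171) in the edgeR fit. In mESCs 3 of 12 expressed crest specifiers fell by the same test, among them Id3 (−2.58, adjusted p = 0.0243) and Tfap2a (−2.35, adjusted p = 0.0333). Tfap2a went from 21.0 and 16.2 CPM in WT mESCs to 2.00, 2.91 and 5.57 CPM in Atxn7l3-/- mESCs.

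The list of neuregulins, other ERBB ligands and ERBB receptors held few calls. Nrg1, the neuregulin that Schwann cells depend on, had 61.6, 37.8 and 73.0 CPM in WT and 208, 380 and 107 CPM in Atxn7l3-/- MEFs, which did not overlap but missed the threshold (1.99 ± 0.49; edgeR, adjusted p = 0.0522, and 0.0863 with the block). Erbb2, the signalling partner of ERBB3, had a log2 fold change of −0.62 (adjusted p = 0.263) in MEFs and −0.96 (adjusted p = 0.0965) in mESCs. Egfr stood at 0.92 (adjusted p = 0.0961) and 1.02 (adjusted p = 0.0779) in the same edgeR fits, and Erbb4 at 0.81 (adjusted p = 0.740) in MEFs. Of this list of 16, the only calls were lower values of 2 EGFR ligands, Btc in MEFs (−2.31; edgeR, adjusted p = 0.0409, not called without any 1 of the 6 libraries) and Tgfa in mESCs (−2.57; edgeR, adjusted p = 0.0402).

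In the neurotrophin list, 1 gene rose and 1 fell among 13 expressed in MEFs. Ntf5, which encodes neurotrophin 4, rose from 0.651, 0.998 and 1.29 CPM in WT to 7.23, 6.61 and 4.90 CPM in Atxn7l3-/- MEFs (2.60 ± 0.44; edgeR, adjusted p = 0.0221). Sorcs1, a sortilin relative, fell by 2.90 on the log2 scale (edgeR, adjusted p = 0.0220). In the 6 edgeR fits that left out 1 library, Ntf5 was called in 2 and Sorcs1 in 3. The Trk receptors missed the test in MEFs despite large fitted changes, with −4.72 ± 1.46 for Ntrk2 (edgeR, adjusted p = 0.0785) and −4.97 ± 1.47 for Ntrk3 (edgeR, adjusted p = 0.0707). Sort1, the co-receptor of p75 for proneurotrophins, rose in mESCs (1.44; edgeR, adjusted p = 0.0217) and stood at 0.91 (adjusted p = 0.141) in MEFs.

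In the remaining lists few genes passed. With the replicate block, 3 autonomic and enteric genes, 3 lipid-binding genes and 1 melanocyte gene were called lower in MEFs, and 3 lower and 1 higher in the neurotrophin list. Ret, the GDNF receptor kinase of enteric and autonomic precursors, had 4.70, 4.05 and 6.75 CPM in WT and 0.238, 0.281 and 0.627 CPM in Atxn7l3-/- MEFs (−3.60 ± 0.58; edgeR, adjusted p = 0.0189), and was the only call among 6 expressed genes of that list. Crabp1, a retinoic acid binding protein of migrating crest and mesenchyme, had the largest fitted change of the 7 lists, from 4.03, 38.6 and 11.7 CPM to 0.0530, 0.0255 and 0.149 CPM (−7.16 ± 1.19; edgeR, adjusted p = 0.0175). It was the only call among 10 expressed lipid-binding genes, where the Fabp7 relative Fabp5 stood at −0.15 (adjusted p = 0.772) and Bsg, a reported receptor for apolipoprotein D, at −0.70 (adjusted p = 0.147). Crabp1 passed the filter on low counts through the WT libraries, where it was high, so nothing is drawn from its p-value. With at least 10 counts required in every library, 8 expressed lipid-binding genes were fitted and 0 were called. In the 6 edgeR fits that left out 1 library, Ret and Crabp1 were called in 3 each. No melanocyte gene was called in MEFs by edgeR among 3 expressed. An unadjusted p under 0.05 was found for 1 of them (beside 5166 of all 15958 genes tested), and DESeq2 called 1 (beside 18.5% of all expressed genes). In mESCs Gpr143, a pigment cell receptor, rose by the edgeR test (3.15, adjusted p = 0.0219).

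**Figure D4:**
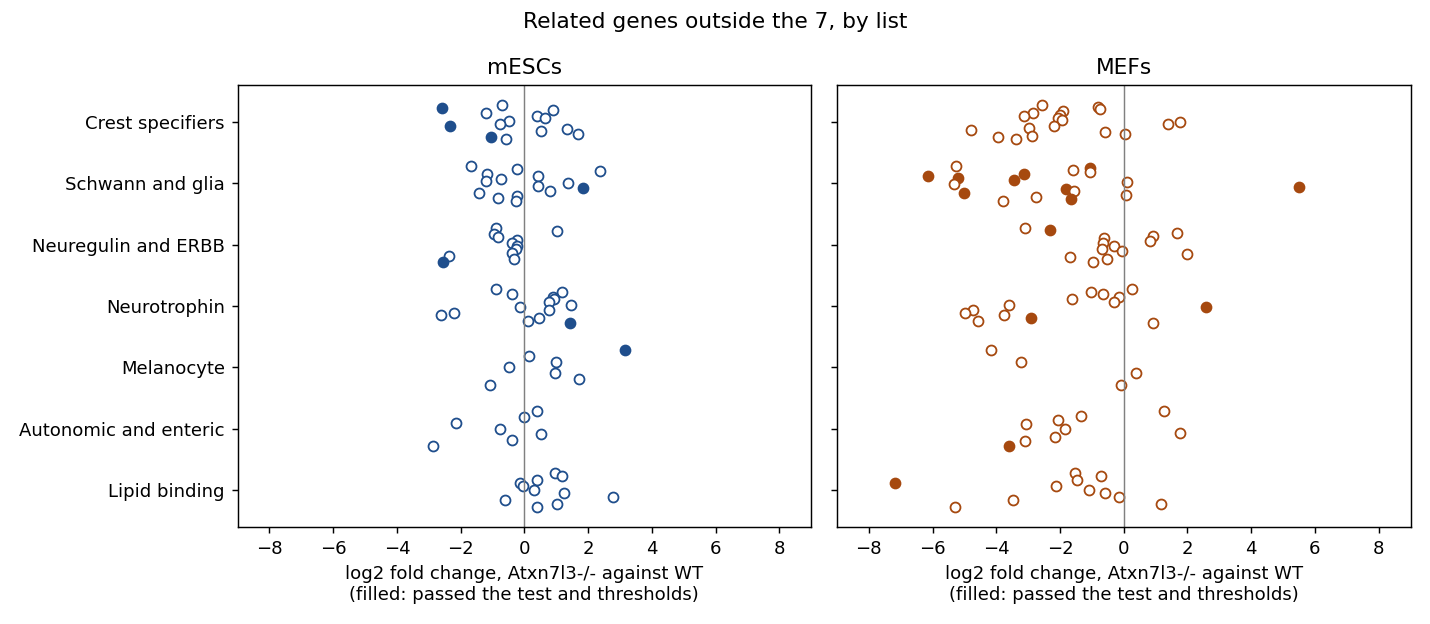
Log2 fold change of Atxn7l3-/- against WT for each tested gene of the 7 lists, in mESCs (left) and MEFs (right), with filled points for genes that passed the test and thresholds. In MEFs most points lie below 0, with 12 filled below it and 2 above, and in mESCs they lie on both sides.

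The genes whose profile over the 11 libraries was nearest to that of Ngfr, by root mean square difference of centred log2 CPM, were Lrrc15 (1.12), Myh3 (1.19) and Wscd2 (1.22). Lrrc15, a membrane protein of activated fibroblasts, had a mean of 16.2 CPM in WT and 0.234 CPM in Atxn7l3-/- MEFs, and 5.48 against 3.85 CPM in mESCs. Myh3, an embryonic skeletal myosin, averaged 18.2 and 0.103 CPM in MEFs and 4.56 and 1.14 CPM in mESCs. Nearest to Apod were Ntm (1.08), Ntrk2 (1.08) and Syndig1 (1.09). Syndig1, a synapse protein, averaged 6.75 and 0.258 CPM in WT and Atxn7l3-/- MEFs, and 5.76 and 1.38 CPM in mESCs, which like Apod is lower in both.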

How the data were processed

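Poly(A) RNA libraries (TruSeq Stranded mRNA) had been demultiplexed, trimmed, mapped to mm10 and counted per gene by the authors with bcl2fastq 2.17.1.14, cutadapt 1.10, STAR 2.5.3a and HTSeq 0.6.1p1, per the submitters' processing notes. The authors deposited, per cell type, raw counts per gene, normalised read counts (a signal from DESeq2 1.16.1 size factors) and the latter scaled per kb by median transcript length, beside their own fold changes and p-values, which were not used. One WT mESC dataset had been left out by the authors and was not analysed here.

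The deposited counts were fitted with edgeR 4.0.16 (TMM, filterByExpr, quasi-likelihood test, prior count 2, Benjamini-Hochberg over all genes tested) in R 4.3.3, for each cell type alone (17800 genes in mESCs, 15958 in MEFs) and, for WT MEFs against WT mESCs, in 1 fit of 11 libraries. A call needed an adjusted p ≤ 0.05, a change of at least 2-fold and, within a cell type, a median above 10 deposited normalised reads per kb. CPM use TMM factors over all 11 libraries, and log2 fold changes are shrunk by the prior count. Their SE come from the same model fitted with almost no prior count. They thus belong to the unshrunken values, which differ from the printed ones at low counts. Floors are 3 counts per library. Intervals and floors cover counting error only, and p-values measure the spread between lines or embryos.

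Replicate numbers come from the labels. Deviations of same-numbered WT and Atxn7l3-/- MEF libraries from their group means correlated with r of 0.161 to 0.473 in the 3 pairs (each r is across genes, and genes are not independent), against a mean of −0.146 for different numbers. All 3 exceeded 0.1, so MEF values with the replicate block are given where they change a call. No label ties a number to a litter or day.

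The 7 genes, the lists and the tests were chosen with earlier results of these data known. Named outside the 7 were fixed reference genes of each pathway, up to 3 called genes per list, cell type and direction with the largest non-overlapping change, and the 3 nearest profiles of Ngfr and Apod. Some of these genes are not reported here, although counts and medians over the lists include them. The scripts were tested on simulated counts. DESeq2 1.42.0, other normalisations, filters, blocks and left-out libraries were tried as alternatives.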

Additional observations from a re-analysis of the deposited data

Results flagged for a closer look

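For 16 of the named genes outside the 7, the Atxn7l3-/- effect differed between MEFs and mESCs by a test of the difference itself (the interaction in 1 edgeR fit of 11 libraries, adjusted over all genes). The difference, MEFs minus mESCs on the log2 scale, was below 0 for 10 genes and above 0 for 6. Among glial and crest genes it was −5.64 for Gfra3 (adjusted p = 0.00909), −4.94 for Gfap (adjusted p = 0.0122), −3.15 for Ret (adjusted p = 0.0412) and −7.12 for Crabp1 (adjusted p = 0.00941). It was −2.84 for Fabp5 (adjusted p = 0.0488) and −6.08 for the neuronal gene Stmn2 (adjusted p = 0.00449). It was above 0 for Mbp (4.19, adjusted p = 0.00622), Ntf5 (2.79, adjusted p = 0.0189) and Nrg1 (2.31, adjusted p = 0.0413). The mesothelial markers gave the highest values, with 7.86 for Upk3b (adjusted p = 0.00200), 8.74 for Upk1b (adjusted p = 0.00519) and 9.88 for Muc16 (adjusted p = 0.00402). In mESCs, however, Muc16 had 7 counts in all in WT and 0 in Atxn7l3-/- libraries, and Upk1b had 6 and 5. The values of Upk1b and Muc16 thus set MEF changes against mESC levels near the floor of detection. Among the genes with the profiles nearest to Ngfr and Apod the difference was −5.76 for Wscd2 (adjusted p = 0.0121), −5.37 for Lrrc15 (adjusted p = 0.0282), −4.98 for Myh3 (adjusted p = 0.0282) and −2.45 for Syndig1 (adjusted p = 0.0414). These 4 were picked for their profile over the same libraries. Apart from the fixed reference genes Nrg1 and Fabp5, the others were picked as called genes with large changes in the same libraries. The tests of all these picked genes are not independent of the choice, and nothing is read from their number.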

How the results depend on the processing

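The number of listed genes called in mESCs (7) was 16 with no filter on low counts, 14 with DESeq2, 12 with the replicate block and 2 in 1 fit of all 11 libraries, and ranged from 0 to 9 with 1 library left out. In MEFs (14) it was 8 with at least 10 counts in every library, 34 with DESeq2, 26 with the replicate block and 27 in 1 fit of all 11 libraries, and 2 to 17 with 1 library left out. The median log2 fold change of the 7 genes in mESCs (−1.03) was −0.21 with no filter, −1.88 with at least 10 counts in every library, −0.25 with DESeq2, −0.26 in 1 fit, and −1.97 to −0.74 with 1 library left out. These medians cover different numbers of genes where a filter differs. In MEFs (−6.09) it was −2.34 with at least 10 counts in every library, −6.82 with DESeq2, −5.34 with the replicate block, −6.79 with a smaller prior count and −5.36 with the correction for GC content, which was chosen after the data were seen, and −6.33 to −4.11 with 1 library left out. The 3 calls between WT cell types became 1 with at least 10 counts in every library, 5 with DESeq2 and 5 with the replicate block, and 3 to 4 with 1 library left out. Signs turned in mESCs for Sox10 with the block (−0.10), for Sox8 without WT replicate 1 (0.62) or Atxn7l3-/- replicate 2 (0.13), with a range of −0.59 to 0.62 over the left-out libraries, and for Erbb3 without WT replicate 1 (0.32; range −0.63 to 0.32). Between WT cell types the sign of Ngfr turned with the block (−0.41, adjusted p = 0.628) and without WT MEF replicate 3 (−0.53, adjusted p = 0.617; range −0.53 to 0.95 with 1 library left out). The causes of these changes were not tested. In mESCs same-numbered libraries correlated in their deviations with r of −0.17 and 0.01, so there the number is only a name. At these depths 3 counts correspond to 0.0571 to 0.0935 CPM, depending on the library.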
